A study of Homo sapiens with 6 samples.

Results

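The Hippo pathway controls tissue growth through a kinase cascade that phosphorylates the coactivators YAP (gene YAP1) and TAZ (gene WWTR1) and holds them in the cytoplasm. Unphosphorylated YAP and TAZ enter the nucleus, bind the DNA-binding TEAD proteins and switch on genes such as CYR61, CTGF, ANKRD1 and AMOTL2, whose mRNA is widely read as a sign of YAP/TAZ activity. In lung epithelium and lung cancer cells the pathway responds to cell density, stiffness and actin tension. Members of the pathway followed here were the coactivators YAP1 and WWTR1, the factors TEAD1, TEAD2, TEAD3 and TEAD4, and the targets CYR61 (now CCN1), CTGF (now CCN2), ANKRD1 and AMOTL2. They were chosen by symbol from the deposited gene table, in which all 10 were present among 35474 genes, and all 10 passed the filter on low counts.

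The samples were A549 cells, an established human lung adenocarcinoma line, collected 48 h after siRNA transfection. In 3 cultures (siBAP18) the siRNA was directed at BAP18, a chromatin-associated protein whose gene is listed as C17orf49, and in 3 cultures (siCtrl) it was non-specific. The labels call the 3 cultures of each group biological replicates and do not say which BAP18 siRNA was used. Both groups come from 1 cell line at 1 time. Without a further siRNA group or a rescue of BAP18, no result here separates loss of BAP18 from other effects of the siRNA.

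Poly(A) RNA was sequenced, and each library held between 42094524 and 56548620 counts. Values are given as CPM, the counts of a gene relative to the library total after edgeR's TMM scaling, or, where different genes are compared, as deposited RPKM, which divides by gene length. C17orf49 had 15.1 ± 1.09 CPM in siCtrl and 2.41 ± 0.235 CPM in siBAP18 (SD, n = 3 each). Mitochondrial transcripts took 6.86% to 7.43% of the counts in siCtrl and 5.27% to 6.14% in siBAP18, and the 3 siBAP18 libraries differed more among themselves than the 3 siCtrl libraries (chi-square per degree of freedom 10.97 to 25.78 against 4.17 to 4.87). The part of either difference in the results below was not tested. Of the 4 epithelial markers EPCAM, KRT8, KRT18 and CDH1, all 4 were expressed, from a mean of 10.3 RPKM for CDH1 to 1948 for KRT8 in siCtrl, and all 4 were lower in siBAP18, by −0.24 (KRT18) to −1.32 (CDH1) on the log2 scale. All 4 passed the adjusted p defined below, and 25.1% of all genes tested were lower at it. KRT18 lost significance when siCtrl replicate 1 or siCtrl replicate 3 was left out. Most markers of other cell types were low, with 0 to 6 counts per library for VWF (endothelium), 0 to 8 for COL1A2 (fibroblasts), 8 to 45 for PECAM1 and 42 to 60 for CD14. COL1A1 was higher, with 349 to 611 counts per library and a mean of 1.22 RPKM in siCtrl. PECAM1 and COL1A1 were lower in siBAP18 at the adjusted p defined below, and CD14 did not pass.

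TEAD proteins bind the letters GGAATG or their complement CATTCC, and promoters of the targets were inspected for them first, because the results below turn on these targets. RefSeq (GRCh38.p14) windows from 250 bases before to 50 bases after a start of transcription were at hand for 7 of the 10 genes, as 10 windows, and were searched on both strands for the TEAD letters, for the AP-1 letters TGANTCA and for the CArG box bound by SRF. The TEAD letters were found in 14.0% of all 35116 windows of the same length, at least 2 copies in 1.37% and at least 3 in 0.128%. AP-1 letters were found in 7.71% and the CArG box in 1.29%. No windows were at hand for TEAD1, TEAD4 and CYR61.

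The CTGF window held 3 copies of the TEAD letters, 169, 104 and 95 bases before the start. The ANKRD1 window held 2 copies, at 220 and 128 bases, with AP-1 letters between them at 195 bases. One copy lay 69 bases before the second of the AMOTL2 starts and 1 lay 162 bases before the YAP1 start. The windows of WWTR1, TEAD2 and TEAD3 and the first AMOTL2 window held none, and no window of the 7 genes held a CArG box. The stretches below show these matches in capitals, 5′ to 3′ on the strand of the gene. They lie at chr6:131951453-131951552 (− strand) for CTGF, at chr10:90921290-90921319, chr10:90921265-90921294 and chr10:90921198-90921227 (− strand) for ANKRD1, at chr3:134374499-134374528 (− strand) for AMOTL2 and at chr11:102110273-102110302 (+ strand) for YAP1. The last 2 ANKRD1 stretches reach into or lie within the gene as the deposited table lists it, up to position 90921276, and the AMOTL2 stretch lies within the listed gene, so their place before the start depends on which start is used. A match of letters is a description and not a measured binding site.
CTGF, 3 TEAD copies: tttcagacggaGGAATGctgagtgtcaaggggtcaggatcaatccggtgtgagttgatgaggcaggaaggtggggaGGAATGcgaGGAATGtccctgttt
ANKRD1, TEAD copy farther from the start: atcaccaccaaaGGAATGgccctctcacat
ANKRD1, AP-1 letters: cacatttcttccTGATTCAcatattcagca
ANKRD1, TEAD copy nearer the start: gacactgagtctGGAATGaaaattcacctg
AMOTL2, TEAD copy on the complement: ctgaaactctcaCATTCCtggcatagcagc
YAP1, TEAD copy: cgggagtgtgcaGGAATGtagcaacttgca

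**Figure D1:**
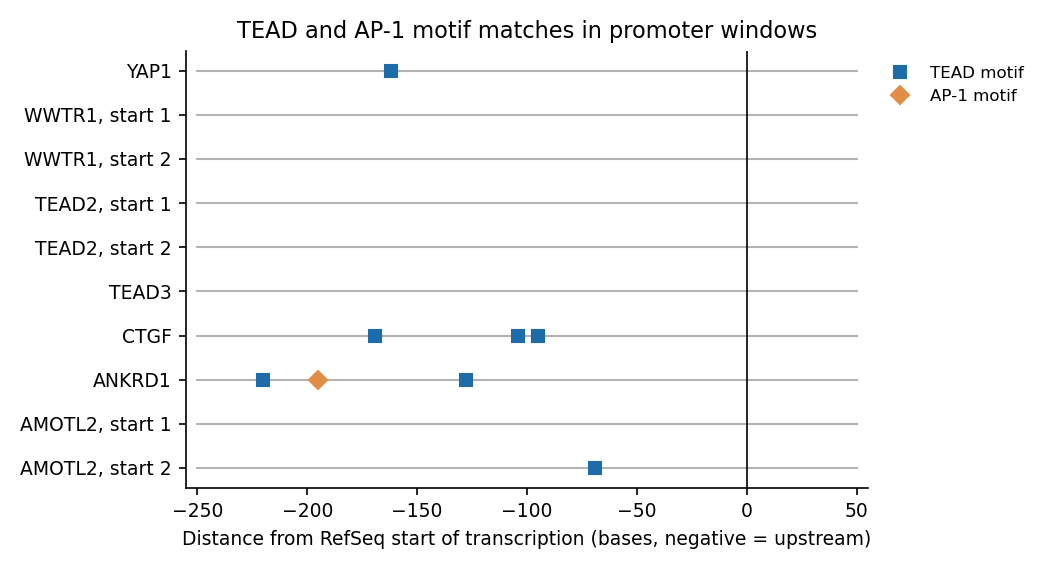
Matches of the TEAD letters (squares) and AP-1 letters (diamond) in the 10 promoter windows of 7 genes, against distance from the RefSeq start in bases, with negative values upstream. CTGF carries 3 TEAD matches, ANKRD1 carries 2 with 1 AP-1 match, AMOTL2 and YAP1 carry 1 each, and the other windows are empty.

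The comparison of siBAP18 with siCtrl showed all 4 targets higher, while of the 6 coactivator and TEAD genes 3 were lower and 1 was higher. ANKRD1 rose 17.5-fold, CYR61 4.29-fold, CTGF 3.44-fold and AMOTL2 2.01-fold. Over the same 6 libraries WWTR1 fell to 0.559 and TEAD1 to 0.541 of the siCtrl level, whereas YAP1 and TEAD3 showed no difference that passed the test. Each of 20776 genes was compared by the quasi-likelihood test of edgeR, with p adjusted by Benjamini-Hochberg over all of them. Calls required that adjusted p to be under 0.05 together with a log2 fold change beyond 1 in either direction. Of the 10 genes, 4 were called higher and 0 lower, beside 4.72% of all genes tested that were called higher and 3.74% that were called lower. At the adjusted p alone, 5 of the 10 were higher and 3 were lower, beside 24.5% and 25.1% of all genes tested. The groups, of 3 libraries each, were fully separated for 8 of the 10 genes, against 56.6% of all genes tested. The split by role was 4 of 4 targets higher, against 1 of 6 coactivators and TEAD genes higher, 3 lower and 2 that did not pass. The 10 genes were chosen with earlier results of these data known, so these counts beside all genes are a description only. In bulk RNA fewer cells expressing a gene and less RNA per cell cannot be told apart.

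**Figure D2:**
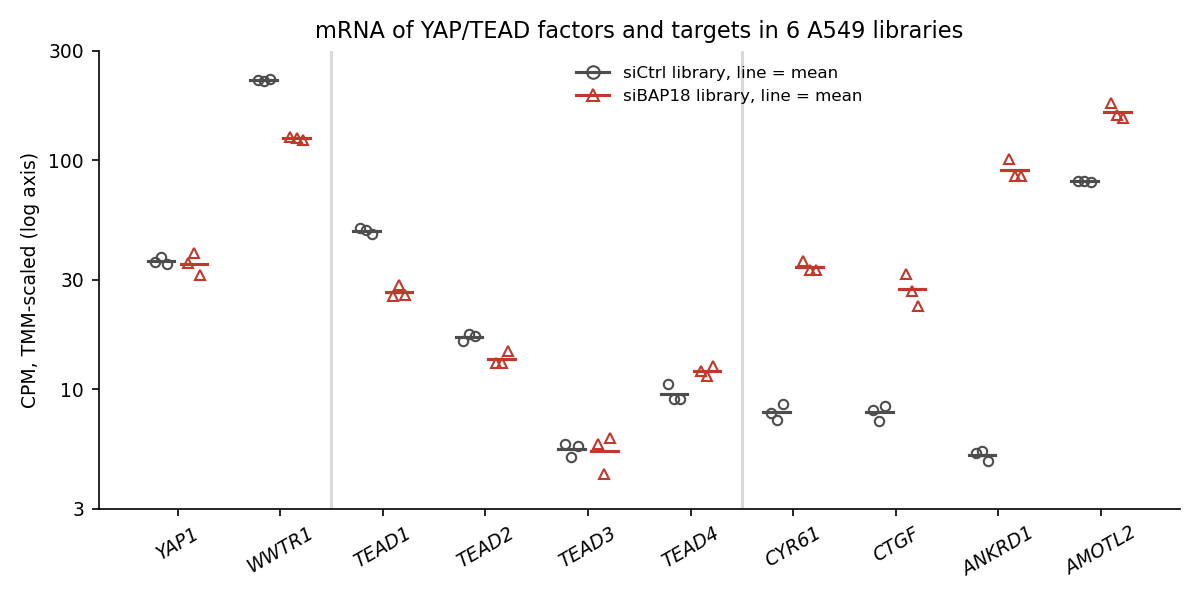
TMM-scaled CPM on a log axis for the 10 genes in each siCtrl library (circles) and siBAP18 library (triangles), with lines at the group means and vertical rules between coactivators, TEAD genes and targets. The siBAP18 libraries lie above all siCtrl libraries for the 4 targets and TEAD4, below them for WWTR1, TEAD1 and TEAD2, and among them for YAP1 and TEAD3.

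YAP1 (chromosome 11, 102110461 to 102233423, + strand, hg38) encodes the coactivator YAP. It had 35.8, 37.9 and 35.3 CPM in siCtrl and 35.5, 39.2 and 31.4 CPM in siBAP18. Both the highest and the lowest of the 6 values were siBAP18 libraries, and the groups overlapped. The log2 fold change was −0.04 (standard error 0.0777, 95% interval −0.20 to 0.12, edgeR's adjusted p = 0.719), an interval of 0.872-fold to 1.09-fold. Without siBAP18 replicate 3, the lowest library, its sign turned to 0.042. A gene on the opposite strand, RP11-864G5.3, shares 628 of its 6296 exon bases and had 149 to 226 counts per library.

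WWTR1 (chromosome 3, 149517235 to 149736714, − strand) encodes TAZ, the paralog of YAP. It had 223, 221 and 225 CPM in siCtrl and 126, 125 and 123 CPM in siBAP18, and each group spanned only a few CPM, with no overlap. WWTR1 fell by 0.84 on the log2 scale (standard error 0.0637, edgeR's adjusted p = 5.45e-11), and leaving out any 1 library gave −0.85 to −0.83. This is short of the fold threshold for a call. An antisense gene, WWTR1-AS1, shares 795 of the 8413 exon bases of WWTR1 on the opposite strand and had 365 to 414 counts in siCtrl and 260 to 362 in siBAP18, against 10263 to 11852 and 4978 to 7318 for WWTR1. Whether strand was used in counting is not given in the sources used here, so these reads cannot be told apart by strand, and at these counts the antisense gene holds few reads beside WWTR1.

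Compared per length, TAZ mRNA was the more abundant of the coactivators in both groups. The ratio of WWTR1 to YAP1 RPKM was 4.66, 4.36 and 4.77 in siCtrl and 2.65, 2.39 and 2.93 in siBAP18. The ratio was lower in 3 of 3 siBAP18 libraries than in any siCtrl library, with a two-sided exact permutation p = 0.10 on its log2 value, the smallest that 3 against 3 libraries allow. The summed RPKM of YAP1 and WWTR1 was 32.2 ± 0.348 in siCtrl and 20.5 ± 1.49 in siBAP18 (SD, n = 3 each).

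Of the 4 TEAD genes, TEAD1 and TEAD2 fell, TEAD4 rose and TEAD3 did not pass the test. TEAD proteins carry the DNA-binding domain through which YAP and TAZ reach their targets, and the paralogs recognise the same letters. TEAD1 (chromosome 11, 12674591 to 12944483, + strand) had 50.8, 49.4 and 47.5 CPM in siCtrl and 25.5, 28.6 and 25.7 CPM in siBAP18, without overlap. TEAD1 fell by 0.89 on the log2 scale (standard error 0.0717, edgeR's adjusted p = 1.71e-10), with −0.94 to −0.86 when single libraries were left out.

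TEAD2 (chromosome 19, 49340595 to 49362457, − strand) had 16.2, 17.4 and 17.1 CPM in siCtrl and 13.03, 13.05 and 14.68 CPM in siBAP18. The groups did not overlap, but siBAP18 replicate 3 came near the lowest siCtrl library, and the log2 fold change was −0.32 (standard error 0.0823, edgeR's adjusted p = 0.00234). CD37, on the opposite strand, shares 319 of the 2980 exon bases of TEAD2 and had 724 to 818 counts in siCtrl and 510 to 872 in siBAP18, about as many as TEAD2 itself, which had 799 to 860 and 595 to 762. The TEAD2 value is therefore uncertain where counting ignored strand.

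TEAD4 (chromosome 12, 2959330 to 3040673, + strand) was the one TEAD gene that rose. It had 10.6, 9.03 and 9.05 CPM in siCtrl and 12.1, 11.5 and 12.6 CPM in siBAP18, and all 3 siBAP18 libraries were above the highest siCtrl library. The log2 fold change was 0.33 (standard error 0.0928, edgeR's adjusted p = 0.00409). TEAD3 (chromosome 6, 35473597 to 35497076, − strand) was the lowest of the family, with 5.75, 5.07 and 5.63 CPM in siCtrl and 5.75, 4.28 and 6.14 CPM in siBAP18. The siBAP18 libraries enclosed all siCtrl values, and the log2 fold change was −0.03 (standard error 0.129, 95% interval −0.30 to 0.23, edgeR's adjusted p = 0.845), which became 0.11 without siBAP18 replicate 2.

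Within each library, the share of each paralog in the summed TEAD RPKM was computed. TEAD1 held 29.2%, 29.5% and 28.5% in siCtrl and 17.7%, 20.4% and 16.6% in siBAP18. TEAD4 held 27.5%, 24.4% and 24.6% in siCtrl and 37.8%, 37.1% and 37.1% in siBAP18. Per length, TEAD1 thus held more than TEAD4 in every siCtrl library and less in every siBAP18 library, whereas by CPM, without division by length, TEAD1 was above TEAD4 in all 6 libraries. The mean differences were −10.9 percentage points for TEAD1 and 11.8 for TEAD4, each with a two-sided exact permutation p = 0.10, the smallest this design allows, and 0.20 after adjustment over the 4 paralogs. TEAD2 went from 34.5% ± 2.05 to 32.0% ± 0.857 and TEAD3 from 10.9% ± 0.626 to 12.4% ± 1.80 (SD, n = 3 each), each with overlapping libraries and an exact permutation p = 0.30. The sign of the TEAD2 share difference turned, to 2.73 percentage points, when shares were taken from CPM without division by length. Summed TEAD RPKM was 16.4 ± 0.345 in siCtrl and 14.2 ± 0.206 in siBAP18 (SD, n = 3 each).

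**Figure D3:**
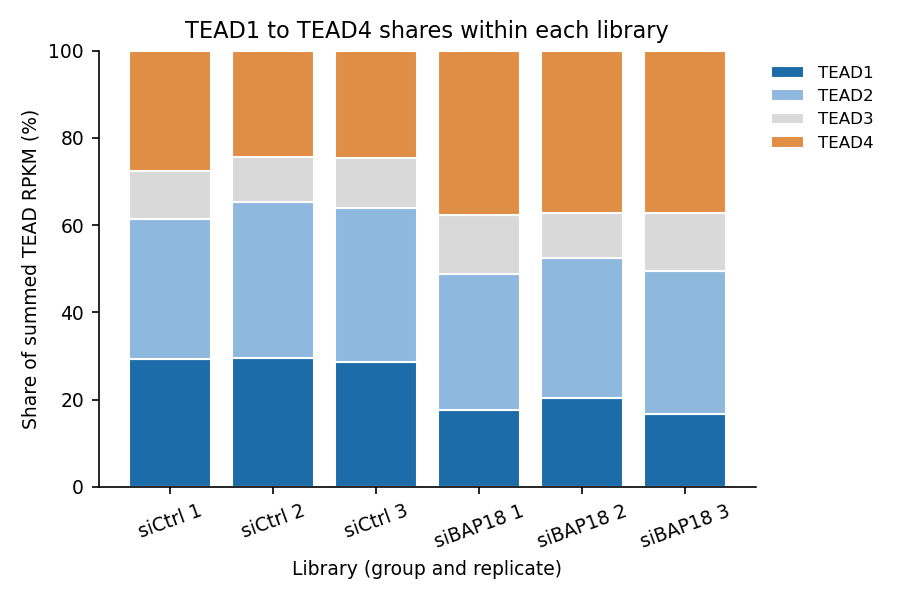
Stacked bars of the share of TEAD1 to TEAD4 in the summed TEAD RPKM of each library, in percent. TEAD1 takes 28.5% to 29.5% in siCtrl and 16.6% to 20.4% in siBAP18, while TEAD4 takes 24.4% to 27.5% and 37.1% to 37.8%.

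CYR61 and CTGF encode secreted matricellular proteins of the CCN family that bind integrins, and both are standard YAP/TAZ readouts. CYR61 (chromosome 1, 85580761 to 85583962, + strand) had 420, 342 and 404 counts, or 7.90, 7.35 and 8.64 CPM, in siCtrl and 1980, 1930 and 1338 counts, or 36.4, 33.0 and 33.0 CPM, in siBAP18. The groups lay far apart. The log2 fold change was 2.10 (standard error 0.0839, 95% interval 1.93 to 2.27, edgeR's adjusted p = 3.03e-16), which placed CYR61 at rank 244 from the top of 20776 genes ordered by fold change.

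CTGF (chromosome 6, 131948176 to 131951373, − strand) started from nearly the same level. It had 8.09, 7.27 and 8.45 CPM in siCtrl and 31.9, 26.8 and 23.1 CPM in siBAP18. The siBAP18 libraries were spread more widely than for CYR61, with SDs of 4.41 and 1.94 CPM, but none came near siCtrl. RP11-69I8.3, on the opposite strand, shares 195 of the 2339 exon bases of CTGF and had 9 to 21 counts in siCtrl and 30 to 40 in siBAP18. The log2 fold change was 1.78 (standard error 0.101, 95% interval 1.57 to 1.99, edgeR's adjusted p = 2.68e-13), and 1.66 to 1.89 with single libraries left out. The ratio of CYR61 to CTGF RPKM was 0.931, 0.964 and 0.975 in siCtrl and 1.09, 1.17 and 1.36 in siBAP18. The ratio was higher in every siBAP18 library than in any siCtrl library. Which of the pair was higher in siCtrl depended on the unit, since by CPM CYR61 was above CTGF in siCtrl replicates 2 and 3.

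ANKRD1 (chromosome 10, 90912096 to 90921276, − strand) encodes a nuclear and sarcomeric ankyrin repeat protein known from stressed heart muscle. It changed most of the 10 genes. It had 279, 249 and 228 counts, or 5.25, 5.35 and 4.88 CPM, in siCtrl and 5477, 4975 and 3458 counts, or 101, 85.2 and 85.3 CPM, in siBAP18. The log2 fold change was 4.13 (standard error 0.0899, 95% interval 3.95 to 4.31, edgeR's adjusted p = 9.05e-22), which placed it at rank 65 of 20776 genes. The ratio of ANKRD1 to CYR61 RPKM went from 0.824, 0.903 and 0.700 in siCtrl to 3.43, 3.20 and 3.21 in siBAP18, so the targets did not rise in proportion.

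AMOTL2 (chromosome 3, 134355874 to 134375479, − strand) encodes an angiomotin family protein that binds YAP and restrains it, and is itself a YAP/TAZ target. It had 80.8, 81.4 and 80.4 CPM in siCtrl and 177, 158 and 152 CPM in siBAP18. The siCtrl libraries were nearly identical and all siBAP18 libraries were higher. A pseudogene on the same strand, RPL39P5, shares 187 of its 5984 exon bases and had 18 to 36 counts per library. The log2 fold change was 1.01 (standard error 0.0692, 95% interval 0.86 to 1.15, edgeR's adjusted p = 9.77e-12). The call of AMOTL2 sits on the fold threshold. Its log2 fold change was 0.9989 without siCtrl replicate 1, 0.9983 without siCtrl replicate 3 and 0.94 without siBAP18 replicate 1, and only 3 of the 10 genes were then called. The adjusted p stayed under 0.05 in all 16 alternatives.

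**Figure D4:**
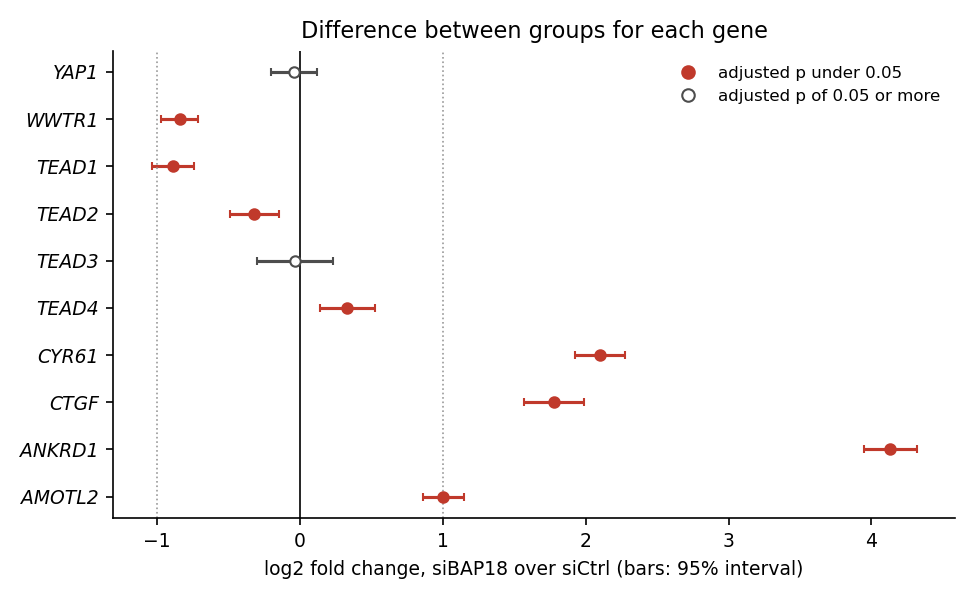
Log2 fold change of siBAP18 over siCtrl with 95% intervals from edgeR for the 10 genes, filled where the adjusted p was under 0.05, with dotted lines at −1 and 1. The targets run from 1.01 for AMOTL2 to 4.13 for ANKRD1, and the coactivators and TEAD genes from −0.89 for TEAD1 to 0.33 for TEAD4.

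The order of levels per length was different in the 2 groups. In siCtrl it ran from WWTR1 (26.4 RPKM) through AMOTL2 (13.5), YAP1 (5.76), TEAD2 (5.66), TEAD1 (4.78), TEAD4 (4.19), CTGF (3.38), CYR61 (3.24) and ANKRD1 (2.60) to TEAD3 (1.80). The library ranges of YAP1 and TEAD2, of TEAD1 and TEAD4, and of CTGF and CYR61 overlapped. Within every single siCtrl library, however, TEAD1 was above TEAD4 and CTGF above CYR61 per length. YAP1 was above TEAD2 except in siCtrl replicate 3 (5.56 against 5.69 RPKM). In siBAP18 it ran from ANKRD1 (45.7 RPKM) through AMOTL2 (27.2), WWTR1 (14.8), CYR61 (13.9), CTGF (11.7), YAP1 (5.63), TEAD4 (5.31), TEAD2 (4.56) and TEAD1 (2.59) to TEAD3 (1.77). Here the ranges of WWTR1 and CYR61, of CYR61 and CTGF, and of YAP1 and TEAD4 overlapped. ANKRD1 thus went from ninth of the 10 to the highest.

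For each target, the 3 genes outside the set with the most similar pattern over the 6 libraries were found by the Euclidean distance of log2 CPM, centred on the siCtrl mean, among the 14212 genes whose average log2 CPM reached 1. For CYR61 they were MAFF (distance 0.109), HABP4 (0.215) and BTG2 (0.220). For CTGF they were PTHLH (0.240), ARRDC4 (0.245) and HSPB8 (0.251). For ANKRD1 they were PPP1R15A (0.249), ATF3 (0.339) and DDIT3 (0.397), and for AMOTL2 SNAPC1 (0.0464), TRIB1 (0.0760) and SDC4 (0.0874). Because values were centred on siCtrl, this distance picks genes of nearly equal fold change by construction. The nearest patterns of ANKRD1 thus had fold changes of 18.4 (PPP1R15A), 19.4 (ATF3) and 15.3 (DDIT3), beside 17.5 for ANKRD1. Their likeness in fold change is not a separate result.

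The kinases and scaffolds upstream of YAP and TAZ were taken as a list of 16 genes, all of which were tested. At the adjusted p, 6 were higher, 7 were lower and 3 did not pass, and 0 passed the fold threshold in either direction. Of all genes tested, 24.5% were higher and 25.1% lower at the adjusted p. Only 4.72% of all genes were called higher and 3.74% lower, so 0 calls among 16 genes is near that share. The median log2 fold change was −0.04, beside 0.00 for all genes tested. Among those that rose were LATS2, the kinase that phosphorylates YAP (0.75, adjusted p = 5.84e-08), the upstream scaffold NF2 (0.75, adjusted p = 2.88e-09), RASSF1 (0.77, adjusted p = 5.67e-07), FRMD6, WWC1 and MAP4K4. Those that fell included the LATS cofactors MOB1A (−0.77, adjusted p = 1.60e-08) and MOB1B (−0.78, adjusted p = 5.58e-07), the MST kinases STK3 (−0.60, adjusted p = 2.66e-07) and STK4 (−0.47, adjusted p = 3.44e-05), and TAOK1, TAOK3 and WWC2. LATS1 (−0.17), TAOK2 (0.10) and SAV1 (0.17) did not pass, although SAV1 did without siBAP18 replicate 3. Both LATS cofactors and both MST kinases were thus among the genes that fell, and LATS2, NF2 and RASSF1 were among those that rose.

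Of 7 genes for other proteins that bind TEAD or YAP, 5 were tested. VGLL4, which competes with YAP for TEAD, rose by 0.30 (edgeR's adjusted p = 0.00335), and VGLL3 fell by 0.75 (edgeR's adjusted p = 7.67e-06). AMOTL1 (0.19, adjusted p = 0.0334) and PTPN14 (0.21, adjusted p = 0.0303) passed narrowly (edgeR). Neither passed without siCtrl replicate 1, without siCtrl replicate 3 or without siBAP18 replicate 2, and AMOTL1 did not pass without siCtrl replicate 2. AMOT did not pass (0.79, with 4 to 36 counts per library), and VGLL1 was below the filter with 0 to 4 counts. The list gave 3 higher and 1 lower at the adjusted p, beside 24.5% and 25.1% of all genes tested, and a median of 0.21.

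A further list of 18 genes described as YAP/TEAD targets in other cells was tested in full. At the adjusted p, 11 were higher, 2 were lower and 5 did not pass, with 4 called higher and 0 called lower and a median log2 fold change of 0.24. Of all genes tested, 24.5% were higher and 25.1% lower at the adjusted p, with 4.72% called higher and 3.74% called lower. The list shares LATS2 and PTPN14 with those above. GADD45A, a growth arrest gene, rose 3.07-fold (edgeR's adjusted p = 7.31e-16), FJX1 2.52-fold (adjusted p = 9.33e-11) and the receptor kinase AXL 2.22-fold (adjusted p = 2.82e-13). RBMS3 was also called (log2 fold change 1.25, edgeR's adjusted p = 0.0141), resting on 4 to 45 counts per library. It did not pass without siCtrl replicate 3 (adjusted p = 0.0972) or without siBAP18 replicate 1 (adjusted p = 0.0786). NT5E (−0.49) and ASAP1 (−0.27) fell. F3 (0.12), CRIM1 (−0.04), FOXF2 (−0.19), MYOF (0.04) and DOCK5 (0.10) did not pass, though MYOF and DOCK5 did without siBAP18 replicate 3. IGFBP3 passed (0.19, edgeR's adjusted p = 0.0166), but no longer did when any 1 siCtrl library or siBAP18 replicate 1 was left out. The median over the 4 targets followed here was 1.94.

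Close relatives of the targets were counted beside them. NOV (0.71) and WISP2 (0.61), both of the CCN family, rose at the adjusted p of edgeR's test (0.00580 and 1.70e-06), WISP1 had 0 to 4 counts and WISP3 had 0 or 1 count per library. ANKRD2, the muscle relative of ANKRD1, had 50, 32 and 56 counts in siCtrl and 242, 232 and 193 in siBAP18, a log2 fold change of 2.21 (edgeR's adjusted p = 2.50e-10). ANKRD23 did not pass (−0.17, edgeR's adjusted p = 0.109), but did without siBAP18 replicate 3.

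CYR61, CTGF and ANKRD1 also answer to the actin-sensing SRF and MRTF factors and to AP-1, so genes of both were counted. Of all genes tested, 24.5% were higher and 25.1% lower at the adjusted p, and 4.72% were called higher. Of 13 SRF/MRTF targets, 8 were higher at the adjusted p, 0 were lower and 5 did not pass, with 3 called higher. The median was 0.48. Taking CNN1 at its ratio to the floor given below could not move this median, because CNN1 lay above it either way. ACTA2, smooth muscle actin, rose 3.71-fold (edgeR's adjusted p = 2.22e-15) and FHL2 2.09-fold (edgeR's adjusted p = 1.66e-09). CNN1 had 0, 2 and 2 counts in siCtrl and 18, 22 and 26 in siBAP18. Its mean CPM in siBAP18 was 7.29 times a floor of 3 counts per siCtrl library. That ratio is not a lower limit, because edgeR's interval for the CNN1 fold ran from 5.79 to 37.8. SRF itself rose by 0.42, whereas CNN2 (0.09), VCL (−0.15) and MYL9 (0.64) did not pass with all libraries. CNN2 and VCL passed without siBAP18 replicate 2, and MYL9 passed without siCtrl replicate 2, siCtrl replicate 3 or siBAP18 replicate 2. All 7 AP-1 genes were higher at the adjusted p, and 4 were called, namely FOSB (4.73), FOSL1 (3.70), JUN (3.39) and FOS (1.25). The part of either group of genes in the rise of the 4 targets was not tested.

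**Figure D5:**
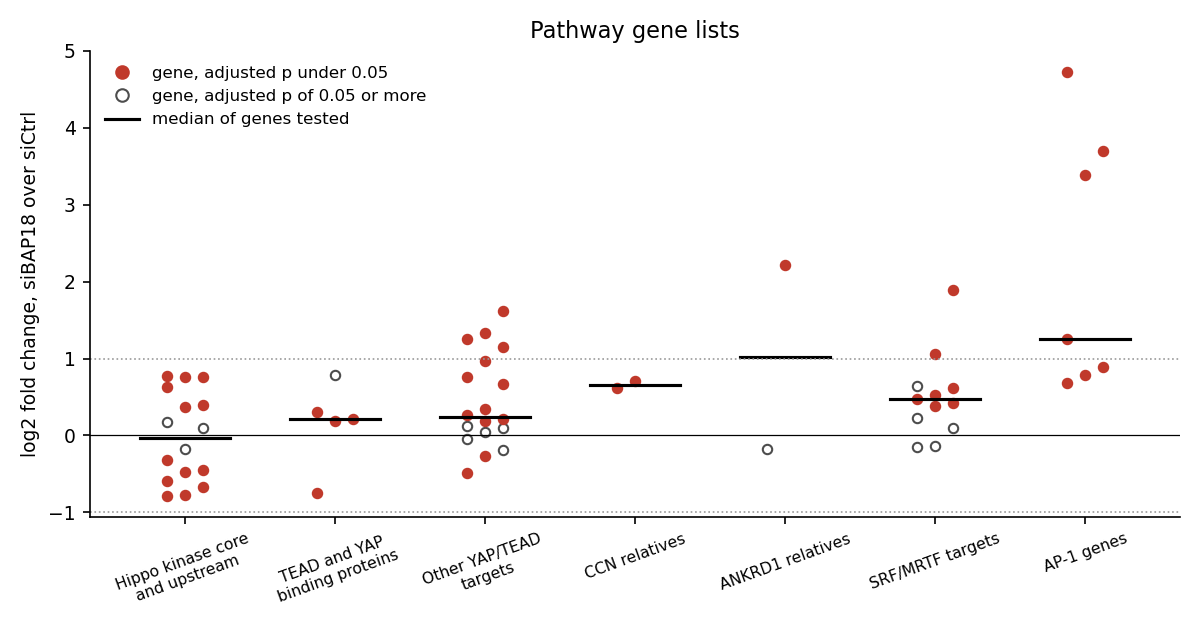
Log2 fold change of siBAP18 over siCtrl for each tested gene of 7 lists, filled where the adjusted p was under 0.05, with bars at list medians and dotted lines at −1 and 1, and with CNN1 not drawn because its siCtrl libraries lie at or under 3 counts. The Hippo list falls on both sides of 0 with a median of −0.04, and the AP-1 list lies wholly above 0 with a median of 1.25.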

How the data were processed

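RNA-seq of 3 siBAP18 and 3 siCtrl A549 cultures was analysed. Per the labels, poly(A) RNA was made into strand-specific paired-end libraries. The authors deposited raw counts per gene and RPKM values, and the RPKM equal the count per kilobase relative to the library's total (largest relative deviation 5.3e-15). The submitters' processing notes list hg38, and also GRCm38; the aligner, counter and strand setting are not given in the sources used here. Of counts from 1 to 20, between 74.9% and 77.2% per library were even numbers, so a count is not always 1 independent fragment. A gene at 0 could hold up to 3 counts if each count were independent, a floor that covers counting error only. Where a fragment was counted more than once, this floor is too low and ratios to it are too high.

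Counts were filtered with filterByExpr, scaled by TMM and compared with edgeR 4.0.16 in R 4.3.3 (quasi-likelihood test, Benjamini-Hochberg adjustment over 20776 genes). Each standard error was obtained as the fitted log2 change over the root of its F statistic. Shares and ratios of RPKM were compared with exact permutation tests in Python 3.11.15 with scipy 1.17.1; sums and ratios among targets were added after their values had been seen. The edgeR fit was tested on simulated independent counts with the same dispersion in both groups, unlike the libraries here. The permutation test was tried on a made-up example of fully separated groups. Neither check shows that the p-values hold for these data. The 10 genes and all lists were chosen with earlier results of these data known, and lists were compiled by hand. Named genes are the 10, C17orf49, up to 4 genes of each list past both thresholds, those that changed side of a threshold when 1 library was left out, and the 3 nearest patterns of each target. Other list members outside this rule, such as LATS2, MOB1A and VGLL3, were named after their values had been seen. Alternatives used DESeq2 1.42.0, limma 3.58.1, other scalings and filters, a replicate block and single libraries left out. Exon overlaps were taken from the exon coordinates deposited with the counts (GENCODE 29) and promoters from RefSeq. PTPRC and VGLL2 were not analysed here, and a planned comparison of protein sequences was not run.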

Additional observations from a re-analysis of the deposited data

How the results depend on the processing

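Across 16 alternative settings, the counts of the 10 genes higher (5) and lower (3) at the adjusted p did not change, and the number called higher was 3 or 4. It was 3 where AMOTL2 fell to a log2 fold change of 1 or less: with no filter (0.9897), with limma on log2(RPKM + 1) with and without a filter (0.9551), and without siCtrl replicate 1, siCtrl replicate 3 or siBAP18 replicate 1. With single libraries left out, YAP1 ranged from −0.12 to 0.042 (without siBAP18 replicate 3) and TEAD3 from −0.13 to 0.11 (without siBAP18 replicate 2), so both signs turned. With shares from CPM, not per length, the differences were −14.5 (TEAD1), 2.73 (TEAD2, reversed) and 9.18 (TEAD4) percentage points; the change of unit is the only difference. Replicate numbers share only a number (residual r of 0.0722, 0.222 and 0.105 for numbers 1, 2 and 3), although every library correlated best with its own number, a hint from the data and not the design. With the replicate block, 968 genes were called higher and 773 lower, against 981 and 777, and the block changed no call of the 10 genes; 1 SRF/MRTF target was then lower. Over all genes, 605 were called higher with at least 10 counts in every library, and limma called 215 and 133 (pseudocount 1), 475 and 434 (pseudocount 0.1), and 212 and 133 (no filter) higher and lower, where a pseudocount shrinks the change of low genes. Among lists, TEAD and YAP binding proteins higher at the adjusted p fell from 3 to 1 without a filter and with both filtered limma fits, to 0 with unfiltered limma, and were 1 to 3 with single libraries left out. Their 1 lower gene, VGLL3, was left untested in both filtered limma fits, which required a mean RPKM of at least 0.5. Other YAP/TEAD targets lower were 1 with unfiltered limma. SRF/MRTF targets lower were 0 to 1 with single libraries left out and 1 with DESeq2, and called higher were 1 with each limma fit. AP-1 genes called were 2 with limma on log2(RPKM + 1), filtered or not. The same RPKM filter left CNN1 and FOSB untested in both filtered limma fits. ANKRD1 relatives lower were 0 to 1 with single libraries left out. Except where noted, the cause was not tested. RBMS3 under unfiltered limma gave 0.03 (adjusted p = 0.242). Counts of 0 to 45 limit VGLL1, WISP1, WISP3, AMOT, RBMS3 and CNN1.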
